A study of Mus musculus with 3 samples.

Results

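Foxp3 and 8 genes that mark or uphold the identity of regulatory T cells (Tregs) were measured in 3 RNA-seq libraries of T-follicular regulatory (TFR) cells. The 9 genes were chosen by name from 25759 genes. They are the transcription factor Foxp3 itself, the Ikaros family members Ikzf2 (Helios) and Ikzf4 (Eos), the DNA-binding factor Runx1 with its partner subunit Cbfb, the IL-2 receptor chains Il2ra (CD25) and Il2rb (CD122), and the surface proteins Lrrc32 (GARP) and Nrp1 (neuropilin-1). All 9 had an RPKM above 5 in each of the 3 libraries, where RPKM is the number of exon reads scaled to the exon length of the gene and to the total of the library.

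The study asked how NFATc1 and Blimp-1 shape TFR cells, and made 1 library for each of 3 genotypes on the C57BL/6J background. The first was labelled NFATc1-deficient and has the genotype Nfatc1fl/fl.Prdm1gfp/+.FIC (N). The second, NFATc1/αA-overexpressing, has Nfatc1caaA.Prdm1gfp/+.FIC (αA), and the third, which is Blimp-1-deficient as well, has Nfatc1caaA.Prdm1gfp/fl.FIC (PαA). All mice received 125 µg of the hapten-carrier NP-KLH in alum, were boosted on day 7, and B220-CD4+CXCR5+GITRhi cells that were positive for the Blimp-1 reporter GFP were sorted from spleen and mesenteric lymph nodes on day 10. FIC stands for Foxp3-IRES-Cre, in which the Cre recombinase is made from the Foxp3 locus, and all 3 genotypes carry it together with 1 gfp allele of Prdm1, the gene of Blimp-1. The study describes Cre activity of FIC also in some conventional T cells. The age of these mice and the number behind each library were not given in the sources used here. With 1 library per genotype there is no spread between mice, no test was possible, and every interval below covers counting error only. The ratios therefore compare libraries, and whether genotypes differ cannot be told from them.

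Foxp3 is the lineage-defining factor of Tregs, and loss of its function causes fatal autoimmunity. It acts in large protein complexes, among them with Runx1 and Cbfb, which bind at the Foxp3 gene as well, and with Eos, which serves as a co-repressor. CD25 makes the IL-2 receptor highly sensitive, and IL-2 signals through the shared chains to STAT5, which in turn maintains Foxp3. GARP presents latent TGF-beta on the Treg surface, while neuropilin-1, a receptor for semaphorins, and Helios are common on Tregs of thymic origin.

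The RPKM rest on totals of 29726219, 27239921 and 25465829 reads for the libraries labelled N, αA and PαA, and the least abundant of the 9 genes still had 639 exon reads in PαA, where it was lowest. By RPKM over the whole gene, Nfatc1 did not follow the labels. Its RPKM was 62.9 in αA and 32.4 in PαA, but 63.6 in the library labelled N. Reads over the whole gene do not tell whether NFATc1 protein was lost or gained, so the genotypes were not tested by them. N, αA and PαA are used here as names of labels only. Prdm1 had an RPKM of 25.6 in N, 24.9 in αA and 10.0 in PαA, the lowest in the library labelled Blimp-1-deficient.

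The sort markers and pan-T genes were present throughout. Cxcr5 had an RPKM of 48.3 in N, 81.3 in αA and 47.6 in PαA, and Cd4 of 488, 396 and 341. Tnfrsf18, which encodes GITR, reached 303, 217 and 145. The 6 T-cell genes Cd3d, Cd3e, Cd3g, Cd247, Lck and Cd4 summed to an RPKM of 2893, 3399 and 2682, led by Cd3g in each library.

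RNA of other cells differed between the libraries, with more red-cell RNA in αA and PαA than in N and almost no neutrophil RNA in αA. The 4 haemoglobin genes summed to an RPKM of 569 in N, 2395 in αA and 2143 in PαA, with Hba-a2 the most abundant in each. The 5 neutrophil genes S100a8, S100a9, Retnlg, Mpo and Ly6g summed to 34.5, 0.831 and 23.7, and 4 of the 5 were at 0 in αA while Mpo and Ly6g were at 0 in PαA. Myeloid and B-cell lists differed less. The measured 5 of 6 monocyte, macrophage and dendritic-cell genes summed to 225, 151 and 196, almost all of it Lyz2 with an RPKM of 214, 134 and 184. The 5 B-cell genes summed to 19.8, 14.2 and 15.4, of which Cd79b had 11.5, 8.85 and 8.67. The 4 plasma-cell genes summed to 92.0, 111 and 152, led by Xbp1 in N and by Jchain in αA and PαA. In PαA against αA the log2 ratio was 2.54 for Sdc1, 0.70 for Jchain and 0.01 for Xbp1, while Tnfrsf17 was at 0 in PαA. Sdc1 and Jchain were also higher in PαA than in N. The 2 CD8 genes summed to 9.27, 14.1 and 8.14, with Cd8b1 the more abundant. In αA against N both were higher, with a log2 ratio of 3.44 for Cd8a and 0.41 for Cd8b1. In PαA against N Cd8a was higher (3.905, or 1.71 to 4.15 over the settings run) and Cd8b1 lower (-0.79). Cd8a was below an RPKM of 1 in N and highest in PαA, which the sum does not show. The 4 NK-cell genes summed to 7.30, 6.09 and 9.40, led by Eomes in N and by Klrb1c in the others. The part of these cells in the values of the 9 genes was not tested.

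**Figure D1:**
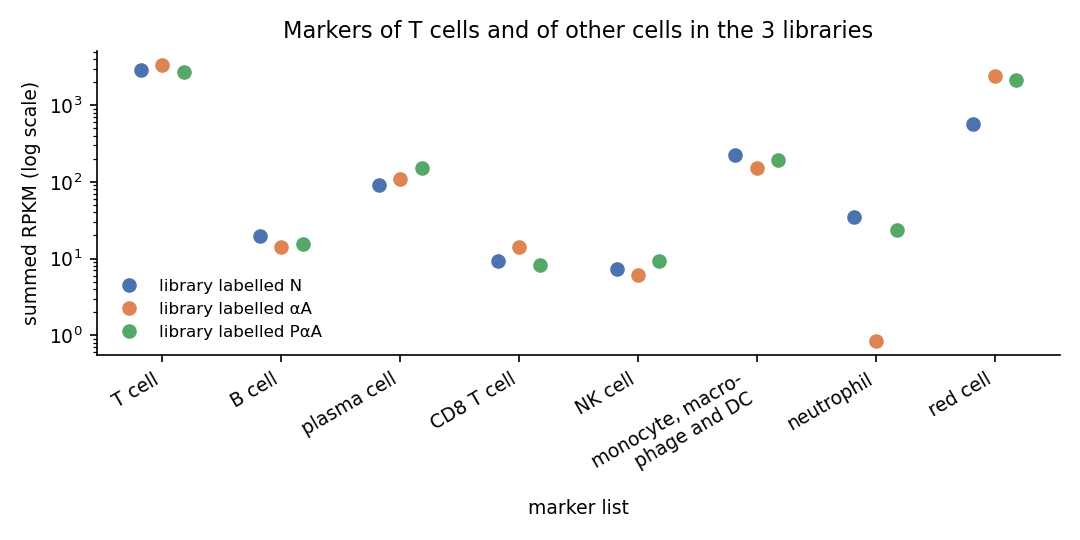
Summed RPKM (log axis) of the marker list of each cell type in the libraries labelled N, αA and PαA, with 1 point per library. The T-cell list lies at 2682 or above in every library, the red-cell list is lowest in N at 569, and the neutrophil list drops to 0.831 in αA.

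The levels of the 9 genes spanned a wide range with a similar order in the 3 libraries. Il2rb stood far above the rest, with an RPKM of 344 in N, 392 in αA and 346 in PαA, which placed it above 97.3%, 97.5% and 97.1% of the 7017 expressed genes, which are those that exceeded an RPKM of 5 in 1 or more of the libraries. Cbfb came next and then Nrp1. Il2ra, Foxp3 and Ikzf2 followed in N at 33.5, 32.7 and 32.3, and their counting intervals overlapped, so their order there is not resolved. In αA and PαA the order below Nrp1 was Il2ra, Ikzf2, Foxp3, with intervals that did not overlap. Foxp3 was thus level with Il2ra in N, where the RPKM ratio of Il2ra to Foxp3 was 1.02, and below it in αA and PαA, where the ratio was 1.84 and 1.91. Ikzf4, Runx1 and Lrrc32 were the lowest in each library. In PαA, Runx1 and Ikzf4 overlapped in their intervals, as did Ikzf4 and Lrrc32.

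**Figure D2:**
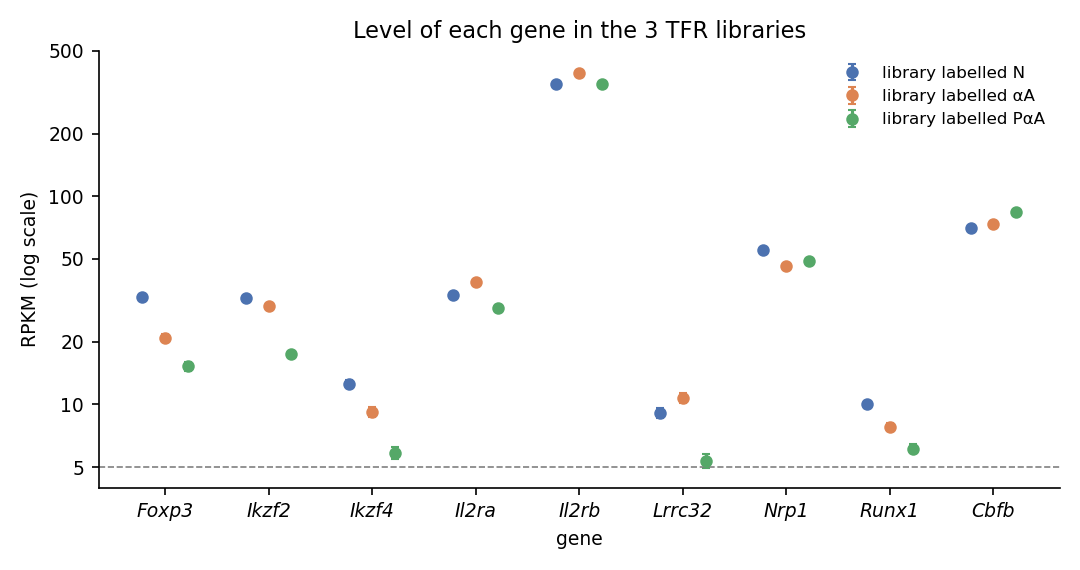
RPKM (log axis) of the 9 genes in the libraries labelled N, αA and PαA. Points are single libraries, bars are 95% Poisson counting intervals, many of them smaller than the points, and the dashed line marks an RPKM of 5. Foxp3 runs from 32.7 in N to 15.3 in PαA, whereas Il2rb stays between 344 and 392.

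The 3 comparisons made were αA against N, PαA against αA and PαA against N. Each pair of them shares a library. The call of the study, a ratio above 2 either way, was applied to the 7017 genes. In αA against N, 4.25% of all genes passed and 0 of the 9. In PαA against αA, 4.63% passed and 1 of the 9, Lrrc32. In PαA against N, 10.3% passed and 2 of the 9, Foxp3 and Ikzf4. With TMM factors, which rest on a trimmed mean of the log ratios, 0 of the 9 passed in any of the 3. At a ratio lower by more than 1.5-fold the members were 1 of 9 (Foxp3), 3 of 9 (Ikzf2, Ikzf4 and Lrrc32) and 5 of 9 (Foxp3, Ikzf2, Ikzf4, Lrrc32 and Runx1), beside 11%, 9.19% and 22.3% of all genes. None of the 9 was higher by more than 1.5-fold in any of the 3 comparisons. The median log2 ratio over the 9 genes was -0.12, -0.41 and -0.70, and over the 7017 genes -0.14, -0.06 and -0.19.

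**Figure D3:**
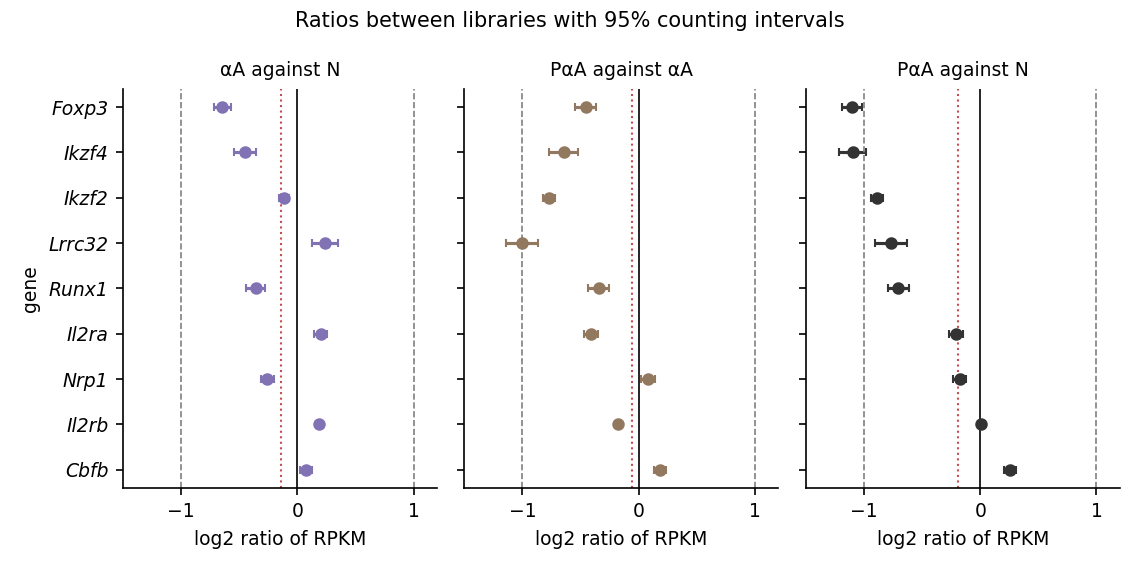
Log2 ratios of RPKM for the 9 genes in the 3 comparisons, ordered by the ratio of PαA against N. Points are ratios between libraries, bars 95% counting intervals, the solid line no difference, the dashed lines 2-fold, and the dotted line the median of all 7017 genes. Foxp3 and Ikzf4 lie past the 2-fold line on the right-hand panel, Lrrc32 on it in the middle panel, and Cbfb right of 0 in each.

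Foxp3 was lower in αA than in N and lowest in PαA. The library labelled N held 3883 of its exon reads, αA 2276 and PαA 1550. The RPKM was 32.7, 20.9 and 15.3, and the counting intervals of the 3 libraries did not overlap. The level in αA was 64.0% of that in N (log2 ratio -0.64, 95% interval -0.72 to -0.57), and 8.79% of all genes had a lower ratio. The level in PαA was 72.8% of that in αA (-0.46, -0.55 to -0.36) and 46.6% of that in N (-1.10, -1.19 to -1.02). Centring on the pan-T genes moved PαA against αA to -0.15, and PαA against N was no longer past 2-fold with TMM factors (-0.87), size factors (-0.86) or centring (-0.97). Relative to the median of all genes, a difference that no scaling of whole libraries can move, the log2 ratios of Foxp3 were -0.51, -0.40 and -0.91. In sorted bulk RNA, fewer cells that express Foxp3 and less Foxp3 RNA per cell cannot be told apart.

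Foxp3 lies on chromosome X (chrX:7579676-7595243, plus strand; all coordinates are those of the tables, GRCm38), and its end overlaps Ccdc22 on the opposite strand over 1435 bases, of which 590 are exonic in both genes by the GENCODE M21 annotation. The library kit is not stated to keep the strand, so reads there cannot be told apart. In the order N, αA and PαA, Ccdc22 reached an RPKM of 9.81, 11.1 and 6.17. Of the Foxp3 exon reads, 96.3%, 95.2% and 97.2% matched no other place. Reads across exon junctions of Foxp3 numbered 1695, 1007 and 613. Their log2 ratios of -0.63 for αA against N, -0.62 for PαA against αA and -1.24 for PαA against N had the sign of the ratios over all exon reads. The interval of the junction ratio of PαA against αA, -0.77 to -0.47, overlapped that of all exon reads. Intron reads of Foxp3 were few, with 117, 102 and 51, or 2.93%, 4.29% and 3.19% of its gene reads. Over all genes the intron share of gene reads was 3.62%, 5.30% and 3.91%, so intron ratios also carry a difference between whole libraries. The intron ratio of Foxp3 in αA against N was -0.07 with an interval of -0.47 to 0.32. That interval includes no difference and lies apart from that of the exon reads. The intron ratio was -0.90 (-1.42 to -0.40) for PαA against αA and -0.97 (-1.48 to -0.49) for PαA against N, both below 0.

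Among the other Foxp genes, Foxp4 had an RPKM of 20.8, 13.7 and 10.2 and Foxp1 of 5.26, 6.41 and 3.48. Foxp2 was near the floor with 0, 29 and 5 reads. Foxp3 made up 55.7% of the summed RPKM of the family in N, 50.8% in αA and 52.7% in PαA. The RPKM ratio of Foxp3 to Foxp4 was 1.58 in N and 1.52 in αA, and that of Foxp3 to Foxp1 was 6.23, 3.27 and 4.39 in N, αA and PαA.

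Ikzf2 (chr1:69531214-69687245, minus strand) encodes Helios, which stabilises the Treg phenotype under inflammation. It had 9206, 7779 and 4255 exon reads and an RPKM of 32.3 in N, 29.8 in αA and 17.4 in PαA. By exon reads N and αA lay close together, and PαA stood apart from both. The log2 ratio of αA against N was -0.12 (-0.16 to -0.07), which is 0.02 above the median of all genes and turns to 0.04 with TMM factors. For PαA against αA it was -0.77 (-0.83 to -0.72) and for PαA against N -0.89 (-0.94 to -0.84). Junction reads of Ikzf2, only 201, 118 and 105, placed the difference elsewhere, with a log2 ratio of -0.64 (-0.98 to -0.31) for αA against N and -0.07 (-0.46 to 0.32) for PαA against αA. Both intervals lay apart from those of the exon reads. The 1429, 1574 and 949 intron reads gave 0.27 (0.16 to 0.37) and -0.63 (-0.75 to -0.52). PαA was thus below N by all 3 kinds of reads, whereas exon and junction reads placed αA differently. Over all genes, the intron share of gene reads was also highest in αA (3.62%, 5.30% and 3.91%). The intron ratios of Ikzf2 alone therefore do not place αA.

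Ikzf4 (chr10:128630843-128645991, minus strand) encodes Eos, which works together with Foxp3 in gene silencing. Its 2204, 1477 and 882 exon reads gave an RPKM of 12.6 in N, 9.19 in αA and 5.87 in PαA, without overlap of the intervals. The level in αA was 73.1% of that in N (-0.45, -0.55 to -0.36), and the level in PαA was 63.9% of that in αA (-0.65, -0.77 to -0.53) and 46.7% of that in N (-1.10, -1.21 to -0.98). The last interval includes 2-fold, so that the call for Ikzf4 is not resolved at this depth. Junction reads of Ikzf4 numbered only 75, 79 and 56, with ratios of 0.20 (-0.27 to 0.68) for αA against N and -0.20 (-0.72 to 0.32) for PαA against N, whose intervals lay apart from those of the exon reads. The intron ratio of PαA against N, -0.18 (-0.54 to 0.17), lay apart from it too, so that the lower level of Ikzf4 in PαA rests on its exon reads as a whole. Intron reads made up 6.73%, 6.87% and 11.98% of its gene reads.

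The other Ikaros family members differed in pattern. Ikzf1 (Ikaros) had an RPKM of 51.3, 35.2 and 35.9 and Ikzf3 (Aiolos) of 68.3, 46.9 and 33.9. Ikzf3 was lower in PαA than in N with a log2 ratio of -1.01. Ikzf5 had 6.52, 5.69 and 5.50, but only 5.42% of its exon reads in N were unique, and its values are uncertain. Ikzf2 contributed 18.9% of the summed RPKM of the 5 family genes in N, 23.5% in αA and 17.7% in PαA, and Ikzf4 7.35%, 7.25% and 5.95%.

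Runx1 and Cbfb, the partners in core-binding factor, lay on opposite sides of 0 in PαA against N under each setting run. Runx1 (chr16:92601466-92826149, minus strand) had 3016, 2155 and 1585 exon reads and an RPKM of 9.99, 7.79 and 6.13. By exon reads each library lay apart from the others, with log2 ratios of -0.36 (-0.44 to -0.28), -0.35 (-0.44 to -0.25) and -0.70 (-0.79 to -0.62) for αA against N, PαA against αA and PαA against N. Centring on the pan-T genes moved the second to -0.04. The 254, 240 and 126 junction reads of Runx1 gave 0.04 (-0.22 to 0.30) for αA against N, an interval apart from that of the exon reads, and -0.83 for PαA against αA. Its intron ratio of αA against N was 0.05 (-0.08 to 0.17). Over all genes, intron reads made up 3.62% of gene reads in N and 5.30% in αA, so the intron ratio alone does not place αA. A lower level of Runx1 in αA was thus seen in the exon reads and not in the junction reads. Cbfb (chr8:105170674-105217989, plus strand), which has no DNA contact of its own and raises the affinity of Runx proteins, had 6078, 5866 and 6221 reads and an RPKM of 70.2, 73.9 and 83.8. Its ratios were 0.07 (0.02 to 0.13), 0.18 (0.13 to 0.23) and 0.26 (0.21 to 0.31), and the first turned to -0.10 when the libraries were centred on the pan-T genes. Its 121, 65 and 54 intron reads went the other way, with -0.77 (-1.23 to -0.32) for αA against N and -0.94 (-1.43 to -0.47) for PαA against N. Hence the RPKM ratio of Cbfb to Runx1 went from 7.02 in N to 9.49 in αA and 13.7 in PαA. Runx3, the most abundant Runx gene, had 25.4, 17.7 and 23.4 and Runx2 3.99, 4.78 and 3.20. Runx1 held 25.4%, 25.7% and 18.7% of the summed RPKM of the 3 Runx genes. A large share of the Runx1 gene reads came from introns, with 25.7%, 31.4% and 34.2%.

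Promoter sequences from RefSeq (GRCm38.p6) matched 5 of the 9 genes by symbol. Those of Foxp3 and of the distal start of Runx1, both lower in PαA than in N, and that of Cbfb, which was not, are shown as the 250 bases before the annotated start, 5′ to 3′ on the strand of the gene. Capitals mark matches on either strand to the NFAT core GGAAA, the Blimp-1 motif AGNGAAAG, the Runx motif TGTGGT, the STAT motif TTCNNNGAA or the GC box GGGCGG.
Foxp3 (chrX:7579426-7579675, plus strand): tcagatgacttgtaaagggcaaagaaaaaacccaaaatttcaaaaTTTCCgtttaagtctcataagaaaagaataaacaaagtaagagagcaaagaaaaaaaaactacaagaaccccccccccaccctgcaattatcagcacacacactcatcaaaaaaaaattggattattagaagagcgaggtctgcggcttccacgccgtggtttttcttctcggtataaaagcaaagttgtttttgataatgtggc
Runx1 (chr16:92826075-92826324, minus strand): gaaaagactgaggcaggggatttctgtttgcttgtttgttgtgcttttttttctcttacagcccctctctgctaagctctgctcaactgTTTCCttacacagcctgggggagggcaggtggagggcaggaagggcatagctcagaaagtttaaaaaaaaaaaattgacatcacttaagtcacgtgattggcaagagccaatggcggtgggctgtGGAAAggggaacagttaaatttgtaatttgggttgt
Cbfb (chr8:105170424-105170673, plus strand): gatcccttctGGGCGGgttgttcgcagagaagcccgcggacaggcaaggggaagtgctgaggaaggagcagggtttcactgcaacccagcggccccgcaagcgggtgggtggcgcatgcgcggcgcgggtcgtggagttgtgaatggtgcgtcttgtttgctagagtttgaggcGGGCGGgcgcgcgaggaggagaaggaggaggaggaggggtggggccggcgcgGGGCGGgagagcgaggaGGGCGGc

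The Foxp3 window held 1 NFAT core, the Runx1 window 2 and the Cbfb window 0. None of the 3 held the Blimp-1, Runx or STAT motif, and no 2 matches overlapped in them. Cbfb alone of the 3 held GC boxes, 4 in number, and had a GC content of 69.2% against 37.6% for Foxp3 and 45.6% for the distal start of Runx1. The proximal start of Runx1 had 67.6% and 27 CpG, close to the 25 CpG of Cbfb, so that the GC content of Runx1 depends on the start chosen. Over all 32851 promoters of this length, the NFAT core was found in 55.6%, the Blimp-1 motif in 7.30%, the Runx motif in 14.0%, the STAT motif in 7.02% and the GC box in 32.7%. The windows of the other matched starts, a second one of Foxp3, the proximal one of Runx1, and those of Il2ra and Nrp1, held 1 to 2 NFAT cores each. The second Foxp3 start had a STAT match that overlapped its NFAT core. These matches describe letters in the windows and do not show binding.

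The IL-2 receptor genes differed less than Foxp3 in PαA against N, and their counting intervals did not overlap that of Foxp3. Il2ra (chr2:11642807-11693193, plus strand) had 5191, 5474 and 3860 exon reads in N, αA and PαA, and its RPKM of 33.5, 38.6 and 29.1 was highest in αA and lowest in PαA. The log2 ratios were 0.20 (0.15 to 0.26), -0.41 (-0.47 to -0.35) and -0.20 (-0.26 to -0.14), the last of which was -0.01 relative to the median of all genes and 0.02 with TMM factors. Centring on the pan-T genes moved the first to 0.02 and the second to -0.10. Intron reads made up 3.01%, 3.66% and 6.11% of its gene reads. The log2 ratio of its intron reads was 0.37 (0.10 to 0.64) for PαA against αA, while that of its exon reads was below 0, and 0.86 (0.57 to 1.16) for PαA against N.

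Il2rb (chr15:78480553-78495066, minus strand), the chain that CD25-positive and CD25-negative cells share to signal, had 28512, 29753 and 24530 reads. Its RPKM of 344, 392 and 346 gave log2 ratios of 0.19 (0.16 to 0.21) for αA against N, -0.18 (-0.21 to -0.16) for PαA against αA and 0.01 (-0.02 to 0.03) for PαA against N. Centring on the pan-T genes turned the ratio of PαA against αA to 0.13, and TPM turned that of PαA against N to -0.19. The interval of PαA against N included 0, and relative to the median of all genes the ratio was 0.20. The junction reads gave 0.12 (0.06 to 0.17) there and the intron reads -0.71 (-1.20 to -0.24). Per length, Il2rb exceeded Il2ra by 10.3-fold in N, 10.2-fold in αA and 11.9-fold in PαA. The third chain, Il2rg, had an RPKM of 523, 503 and 479, but only 6.31% of its reads in N were unique.

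Of the 12 genes of the IL-2 receptor and its signalling, 11 exceeded an RPKM of 1 somewhere and 0 passed 2-fold in any of the 3 comparisons, although Socs1 reached 1.16 in PαA against αA when centred on the pan-T genes. Their median log2 ratio was -0.08 in αA against N, -0.18 in PαA against αA and -0.20 in PαA against N. Without Il2ra and Il2rb it was -0.20, -0.15 and -0.20. The median was -0.17, -0.08 and -0.24 over all 10262 genes at that level. Of those genes, 68.4%, 57.4% and 68.1% were lower in the 3 comparisons, and 7, 9 and 8 of the 11. These counts depend on the scaling. In PαA against N, 4 were lower with TMM factors and 3 with size factors, and in PαA against αA 5 when centred on the pan-T genes. The counts past 2-fold here and in the lists that follow are those of the call above, with an RPKM above 5 in 1 library or more. The largest ratio in each comparison was that of Socs3, a feedback inhibitor of cytokine signalling, with 0.62 in αA against N, that of Socs1, another such inhibitor, with 0.85 in PαA against αA, and that of Stat5a, the transducer of the IL-2 signal, with -0.70 in PαA against N. Il2 itself was below the level, with 9, 4 and 29 reads.

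Lrrc32 (chr7:98489283-98502181, plus strand) was the least abundant of the 9 genes in N and PαA. Its 1269, 1370 and 639 exon reads gave an RPKM of 9.11, 10.7 and 5.35, with N and αA near each other and PαA well below. The log2 ratio was 0.24 (0.13 to 0.35) for αA against N, -1.003 (-1.14 to -0.87) for PαA against αA and -0.77 (-0.91 to -0.63) for PαA against N. The ratio of PαA against αA lay just past 2-fold, and its interval spans both sides. Intron reads of 46, 37 and 8 and junction reads of 53, 54 and 15 were also lowest in PαA, the latter with a log2 ratio of -1.75 (-2.68 to -0.90) against αA. Nrros, the related protein that displays latent TGF-beta on myeloid cells, had an RPKM of 13.4, 15.6 and 16.2, and the RPKM ratio of Lrrc32 to Nrros was 0.68, 0.69 and 0.33.

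Among 14 genes for the display of and response to latent TGF-beta, 12 had an RPKM above 1. In αA against N, 6 were higher, 6 lower and 0 passed 2-fold, with a median of 0.01. In PαA against αA, 8 were lower and 2 passed, Lrrc32 and Itgav, the integrin chain αV, with a log2 ratio of -1.15, which became -0.84 when centred on the pan-T genes. With TMM factors 1 passed there, with centring 0 and with TPM 3. Centring gave 1 in αA against N. In PαA against N, 9 were lower and 2 passed, Itgav with -1.32 and Itgb8, the chain that pairs with αV to release TGF-beta from GARP, with -1.61. Itgb8 had an RPKM of 10.4, 5.80 and 3.40 and Itgav of 16.4, 14.6 and 6.59. The medians of the list in these comparisons were -0.35 and -0.42, against -0.08 and -0.24 over all genes. The 6, 8 and 9 lower genes of 12 stand beside 68.4%, 57.4% and 68.1% of all genes. Tgfb1, the cytokine itself, had an RPKM of 128, 101 and 78.5.

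Nrp1 (chr8:128358604-128503363, plus strand) differed little between αA and PαA. Its 5876, 4508 and 4454 exon reads gave an RPKM of 54.95 in N, 46.0 in αA and 48.6 in PαA, highest in N. The log2 ratio of αA against N was -0.26 (-0.31 to -0.20), that of PαA against αA 0.08 (0.02 to 0.14), which turned to -0.09 with TPM, and that of PαA against N -0.18 (-0.23 to -0.12), which turned to 0.05 with TMM factors. Relative to the median of all genes these were -0.12, 0.14 and 0.01. Intron reads numbered 1213 in N, 1198 in αA and 1503 in PαA, of 7089, 5706 and 5957 gene reads, and their share was highest in PαA. Their log2 ratio of PαA against N was 0.53 (0.42 to 0.64), above 0 where that of the exon reads was below. Junction reads had the sign of the exon reads, with -0.43 (-0.55 to -0.32) for αA against N and -0.40 (-0.52 to -0.28) for PαA against N. Nrp2 was close to the floor with 55, 25 and 23 reads, and Nrp1 made up 99.7%, 99.8% and 99.8% of the neuropilin RPKM. Of 14 genes for neuropilins, plexins and ligands only 6 had an RPKM above 1. Plexin D1 (Plxnd1), a semaphorin receptor, passed 2-fold in all 3 comparisons, with an RPKM of 7.46, 3.24 and 1.52 and log2 ratios of -1.20, -1.09 and -2.30. With 1 added to both RPKM it was past 2-fold in PαA against N only, with -0.75 in PαA against αA, where centring on the pan-T genes ended the call as well. The list medians were -0.30, 0.03 and -0.17, against -0.17, -0.08 and -0.24 over all genes.

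The genes around Foxp3 were then followed in 4 further lists. Of all 10262 genes with an RPKM above 1, 68.4% were lower in αA against N, 57.4% in PαA against αA and 68.1% in PαA against N, with medians of -0.17, -0.08 and -0.24. Of the expressed genes, 4.25%, 4.63% and 10.3% passed 2-fold. Of 27 regulators of Foxp3 transcription, 25 were above this level and 21, 17 and 22 were lower in αA against N, PαA against αA and PαA against N. Their median log2 ratios were -0.29, -0.35 and -0.67. The T-cell genome organiser Satb1 passed 2-fold in αA against N (-1.23, or -0.98 with 1 added to both RPKM), where 4 genes passed when centred on the pan-T genes, and the NF-kappaB subunit c-Rel (Rel, -1.09) and the orphan receptor Nr4a3 (-1.34) in PαA against αA. Centring on the pan-T genes took Rel to -0.78 there. In PαA against N, 5 passed and all were lower, Foxo3 (-1.03), Rel (-1.63), Satb1 (-1.63), Nr4a1 (-1.48) and Nr4a3 (-2.09). The interval of Foxo3, -1.14 to -0.91, includes 2-fold, and 4 of the list passed with TMM factors, size factors, centring or a pseudocount of 1. The DNA methyltransferase gene Dnmt3a was lower by more than that too (-1.81) but stayed under the level of the call, with an RPKM of 3.71, 1.92 and 1.06. Nr4a1 and Nr4a3 are induced by T-cell receptor signals. Nr4a2, of the same list, was lower in αA against N (-0.64) but higher in PαA against αA (0.86). In PαA against N it was at 0.22 (-0.03 to 0.46), with an RPKM of 2.48, 1.59 and 2.89. Nr4a1 had an RPKM of 39.6 in N, 21.3 in αA and 14.2 in PαA.

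The 19 protein partners of Foxp3 above an RPKM of 1, of 20 counted, include Ikzf2, Ikzf4, Runx1 and Cbfb of the 9 genes. Their median log2 ratios were -0.40, -0.33 and -0.73, or -0.43, -0.30 and -0.73 without these 4. Of the 19, 16, 14 and 16 were lower. None passed 2-fold in αA against N or in PαA against αA, but 2 did in the first when centred on the pan-T genes, Gata3 (-1.08) and Ep300 (-1.03), and 1 in the second with TPM. There were 5 in PαA against N, where Ikzf3 (-1.01), Ikzf4 (-1.10), Hif1a (-1.11), the acetyltransferase gene Ep300 (-1.11) and Foxp4 (-1.03) were lower. With TMM factors 0 passed. Only 40.1% of the Hif1a reads in N were unique.

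Among the Treg signature genes other than the 9, more were higher than lower in αA against N, and most were lower in PαA against αA. Of the 17 above an RPKM of 1, 10 were higher and 7 lower in αA against N, with a median log2 ratio of 0.23. In PαA against αA, 14 were lower, with a median of -0.94, and 6 passed 2-fold. These were the inhibitory receptors Ctla4 (-1.68) and Tigit (-1.28), Tnfrsf9 (-1.56), Gpr83 (-3.57), Izumo1r (-1.77) and the ectonucleotidase CD39 (Entpd1, -1.54). Tigit was at -0.97 when centred on the pan-T genes, and 10 passed with TPM. In PαA against N, 16 were lower with a median of -0.88, and 7 passed, Ctla4 (-1.33), Tnfrsf18 (-1.07), Tnfrsf9 (-2.19), Izumo1r (-1.496), Itgae (-1.71), Cd83 (-1.505) and Ecm1 (-1.75). In αA against N, Gpr83 was higher (2.80) and Itgae lower (-1.91). Only 25.6% of the Tnfrsf9 reads in N were unique. With TMM factors, size factors or centring, 6 passed in PαA against N, without Tnfrsf18, whose ratio rose as far as -0.82. The cells were sorted on GITR, the product of Tnfrsf18.

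Genes that Foxp3 is known to hold down included higher and lower ones in each comparison. Of the 9 above the level, 3 were higher in αA against N, 5 in PαA against αA and 4 in PαA against N. Over all 10262 genes, 3226, 4357 and 3266 were higher. The list medians were -0.37, 0.19 and -0.43. Relative to the median of all 10262 genes these were -0.20, 0.27 and -0.19. Il7r, the IL-7 receptor that is typically low on Tregs, passed 2-fold upward in PαA against αA (1.35), with an RPKM of 82.9 in N, 64.2 in αA and 164 in PαA. Dapl1 was lower there with a log2 ratio of -1.20 (-1.85 to -0.58), but its 57, 76 and 31 reads kept it under the level of the call. Pde3b, Lef1 and Satb1 passed downward in αA against N (-1.13, -1.15 and -1.23) and in PαA against N (-1.56, -1.27 and -1.63). In αA against N 1 gene of the list passed with TMM factors, size factors or a pseudocount of 1, in place of 3. In PαA against N, Il7r was higher with a log2 ratio of 0.98 and reached 1.23 with size factors, and 4 genes passed with TMM factors, size factors or centring in place of 3.

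**Figure D4:**
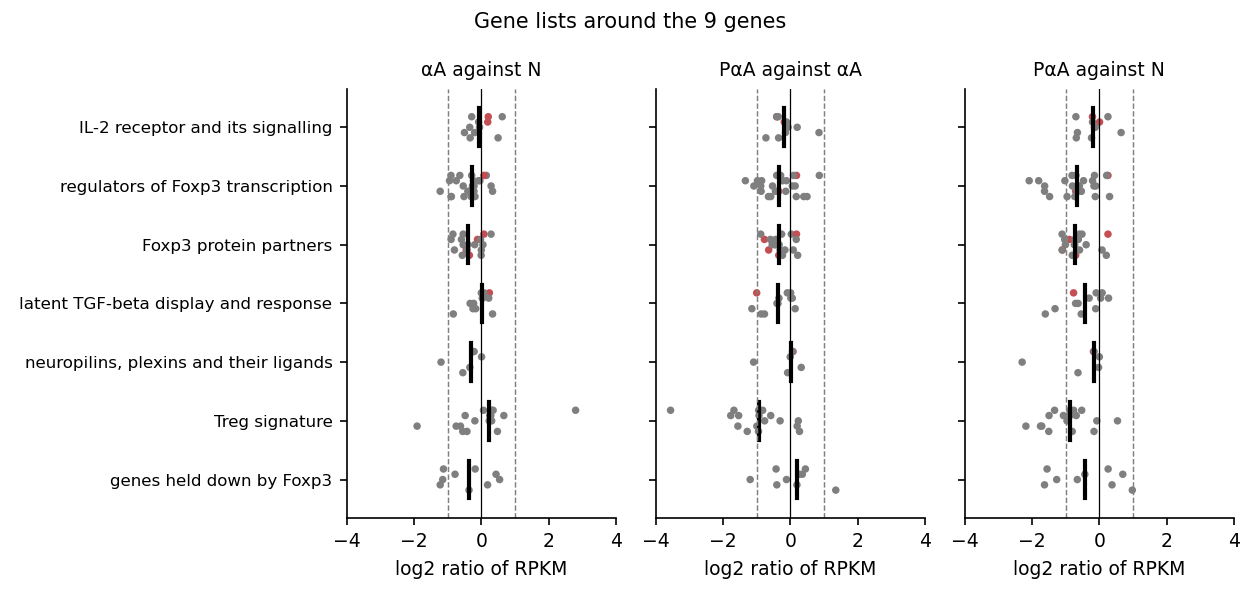
Log2 ratios of RPKM for those genes of 7 lists that passed an RPKM of 1, in the 3 comparisons. Each point is 1 gene, red for the 9 genes described here, the black bars are list medians, and the dashed lines mark 2-fold. The Treg signature has its median at 0.23 in αA against N and at -0.94 in PαA against αA.

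Genes with nearly the same pair of log2 ratios (αA against N and PαA against αA) as a member were sought among the 6888 expressed genes with 100 or more exon reads in each library. The 5 nearest to Foxp3 were Asap1, Pfkfb3, Abhd4, Wbp4 and Chd8, at distances of 0.01 to 0.03. Those nearest to Ikzf2 were Ddit3, Scnm1, Cpsf7, Ssh1 and Npc1, to Il2ra Rnf130, Bysl, Kansl2, Pla2g16 and Usp22, and to Nrp1 Klhdc2, Snap29, Mrpl3, Zfp622 and Dym. Within a distance of 0.1 there were 50 genes around Foxp3, 34 around Ikzf2, 79 around Il2ra and 308 around Nrp1. No list gene was among the nearest 5. With 3 libraries such a likeness rests on 2 ratios that share a library, and many genes meet it.

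The ratios of the 9 genes moved with the scaling of the libraries. Over the 7017 genes the median log2 ratio of PαA against N was -0.19 with RPKM, -0.39 with TPM, 0.04 with TMM factors, 0.05 with size factors from the median of ratios and -0.06 when centred on the pan-T genes. The ratio of Foxp3 ran from -1.30 to -0.86 under these settings, that of Ikzf4 from -1.30 to -0.85, that of Ikzf2 from -1.09 to -0.65, that of Lrrc32 from -0.96 to -0.52 and that of Runx1 from -0.90 to -0.46. These 5 were lower in PαA than in N under every setting run, and Cbfb was higher under every one, from 0.06 to 0.50. Il2ra, Il2rb and Nrp1 changed sign.

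**Figure D5:**
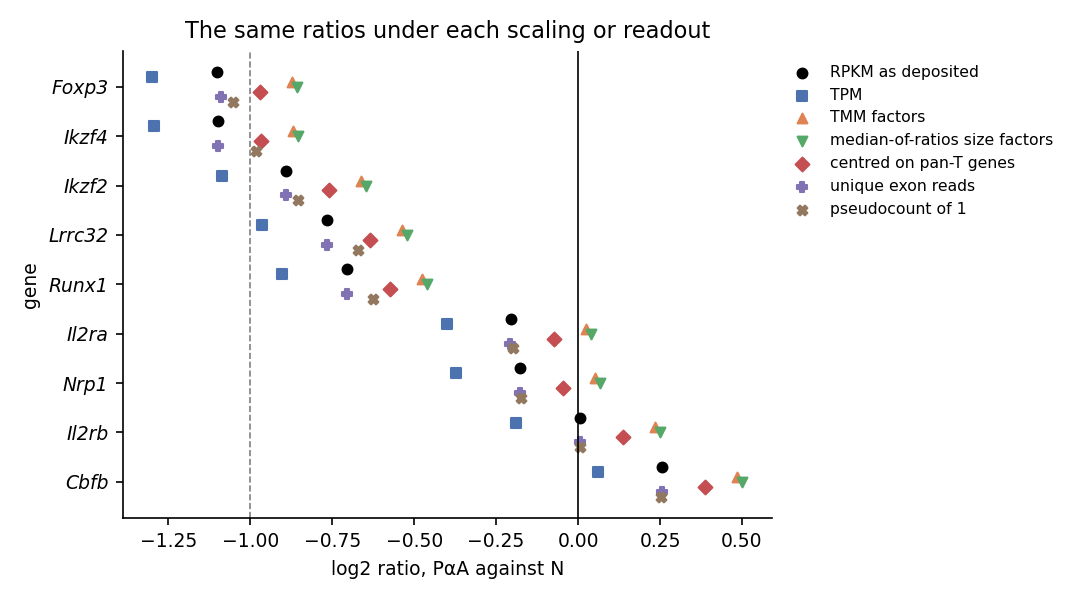
Log2 ratio of PαA against N for each of the 9 genes with the deposited RPKM and under 6 alternatives. The solid line marks no difference and the dashed line 2-fold. Foxp3, Ikzf4, Ikzf2, Lrrc32 and Runx1 stay left of 0, Cbfb stays right of it, and Il2ra, Nrp1 and Il2rb have points on both sides.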

How the data were processed

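Poly(A) RNA of sorted TFR cells was sequenced in 3 libraries, 1 per genotype, assigned to genotypes by their labels. Per the labels and the methods of the study, reads were aligned to GRCm38 and counted on genes in CLC Genomics Workbench by the authors, whose annotation release is not given in the sources used here. The tables deposited by the authors hold raw counts of exon reads (all, and unique ones), of junction, intron and gene reads, and RPKM and TPM, for 25759 genes. Of these genes, 3715 had no exon length and were not used.

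Ratios of RPKM were formed with exact Clopper-Pearson intervals at a 95% level from the total exon reads, and levels got Poisson intervals. The libraries were amplified without molecular identifiers, so the intervals cover counting error only. The call was an RPKM above 5 in at least 1 library and a ratio above 2 either way, as in the filter of the study with its expression value read as RPKM. Lists were counted at an RPKM above 1, without some genes that are not reported here, so their counts and directions cover the remaining genes only. The 9 genes and all lists were chosen with earlier results of these data known. Genes named are the 9, their relatives, targeted genes, sort markers, the nearest genes, and in each list the genes past 2-fold or else the largest ratio. Other genes were named after their values were seen.

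Alternatives were TPM, TMM factors (edgeR 4.0.16, R 4.3.3, on counts), median-of-ratios size factors, centring on 6 pan-T genes, unique reads, 1 added to both RPKM, and other thresholds. Both sets of factors kept the geometric mean of the library totals. Coordinates are those of the deposited tables; 7 of the 9 genes had the same span in GENCODE M21. Motifs were searched in 250 bases of RefSeq promoters. Ratios, intervals and calls were tested on simulated Poisson counts, which check the computation and hold no spread between mice or from amplification. All else ran in Python 3.11.15 (numpy 2.4.6, pandas 2.3.3, matplotlib 3.10.9, scipy 1.17.1).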

Additional observations from a re-analysis of the deposited data

How the results depend on the processing

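The log2 ratio of Foxp3 kept its sign in all 18 alternative values. For αA against N it was -0.64 and became -0.48 with TMM factors, -0.47 with size factors by median of ratios and -0.82 when centred on the pan-T genes. For PαA against αA it was -0.46 and became -0.62 with TPM and -0.15 when centred on the pan-T genes. For PαA against N it was -1.10 and became -1.30 with TPM, -0.87 with TMM factors, -0.86 with size factors and -0.97 when centred. The number of the 9 genes past 2-fold in PαA against αA, 1 with RPKM, was 0 with TMM factors, size factors, centring or a pseudocount of 1, and 3 at 1.5-fold. In PαA against N it was 2, and became 0 with TMM factors, size factors and centring, 1 with the pseudocount, 3 with TPM and 5 at 1.5-fold. In αA against N it was 0 and became 1 at 1.5-fold. TMM and size factors bring the median gene close to 0, which RPKM does not. Of 162 alternative ratios of the 9 genes, 10 had another sign, in 5 genes whose ratio was small (Ikzf2, Cbfb, Il2ra, Il2rb and Nrp1). With 1 library per genotype no replicate could be left out, and no paired analysis was possible because no group has more than 1 sample. The lists moved too. Protein partners of Foxp3 past 2-fold in PαA against N were 5 with RPKM, 7 with TPM and 0 with TMM factors, and Treg signature genes 7, 11 and 6. In PαA against αA, Treg signature genes were 6 with RPKM, 10 with TPM and 5 when centred, and regulators of Foxp3 transcription 2, 5 and 1. Read depth limits the 2-fold calls of Lrrc32 and Ikzf4, whose intervals include 2-fold, as do those of the list genes Rel and Plxnd1 in PαA against αA, Foxo3, Ikzf3 and Foxp4 in PαA against N and Pde3b in αA against N.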

Other observations

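The following values were chosen after they were seen. The Y-linked genes Ddx3y and Uty had reads in every library, Ddx3y with an RPKM of 14.5 in N, 17.3 in αA and 10.4 in PαA and Uty with 877, 572 and 556 reads, so each library holds RNA of male mice, which have 1 copy of the X-linked Foxp3. Whether female mice were among those sorted was not tested. Junction reads made up 43.7% of the exon reads of Foxp3 for N, 44.2% for αA and 39.5% for PαA, while over all genes the share was 26.0%, 26.2% and 27.5%. The exact 95% intervals of the Foxp3 share were 42.1% to 45.2%, 42.2% to 46.3% and 37.1% to 42.0%, and that of PαA overlapped neither of the others.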
